A study of Rattus norvegicus with 10 samples.

Results

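The apolipoprotein genes make the protein coat of plasma lipoproteins, and the microsomal transfer protein gene Mttp makes the enzyme that loads lipid onto apolipoprotein B. The members are the genes Apoa1, Apoa2, Apoa4, Apoa5, Apob, Apoc1, Apoc2, Apoc3, Apoe and Mttp. They were found as the probe sets that the array platform's gene table assigns to 1 of these genes and to no other gene. This gave 10 of 14217 genes and 12 of the 31042 probe sets tested, 2 each for Apob and Apoe and 1 for each of the other 8 genes. Liver RNA of 10 male rats, 13 weeks old, was measured on 1 array per animal. The N-group (5 livers, animals 1, 4, 7, 10 and 13) ate, for 30 days, a diet holding 30 wt% instant noodle with 26% of its energy as fat. The C-group (5 livers, animals 2, 5, 8, 11 and 14) ate the same diet without the seasonings, so both diets share the noodle and the fat. Feeding was paired, at about 60 g of diet for each kg of body weight daily, with light and dark phases of 12 h. The question, from the study's title, is how seasonings in such a diet bear on lipid metabolism.

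The liver is the main source of plasma apolipoproteins. Hepatocytes assemble very low density lipoprotein around Apob with the help of Mttp, and Apoa1 and Apoa2 are the main proteins of high density lipoprotein. The apolipoproteins Apoc1, Apoc2, Apoc3, Apoa4, Apoa5 and Apoe move between particles and steer lipolysis and uptake. Several of these genes lie side by side in the rat genome. On chromosome 8 the order is Apoa1, Apoc3, Apoa4 and Apoa5, with no other protein-coding gene between them, and on chromosome 1 Apoe, Apoc1, Apoc4 and Apoc2 are neighbours in the same way.

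Sequences at the start sites of 2 chromosome 8 neighbours are shown because their signals differed from liver to liver, as described below. Of the 10 genes, 5 (Apoa4, Apoa5, Apoc1, Apoc2 and Apoe) had a promoter window in the RefSeq table of build GRCr8, with 9 windows in all. Each window holds 250 bases before and 50 after a start site. The Apoa4 window is at chr8:55435529-55435828 on the plus strand, and the first Apoa5 window is at chr8:55457621-55457920 on the plus strand. Capitals mark matches, on either strand, to the motifs searched, which were AGGTCA (the nuclear receptor half-site), CAAAGTCCA (bound by HNF4), the palindromic HNF1 motif, TATAAA (the TATA box), TTATGTAA (the D-box) and CACGTG (the E-box).
Apoa4: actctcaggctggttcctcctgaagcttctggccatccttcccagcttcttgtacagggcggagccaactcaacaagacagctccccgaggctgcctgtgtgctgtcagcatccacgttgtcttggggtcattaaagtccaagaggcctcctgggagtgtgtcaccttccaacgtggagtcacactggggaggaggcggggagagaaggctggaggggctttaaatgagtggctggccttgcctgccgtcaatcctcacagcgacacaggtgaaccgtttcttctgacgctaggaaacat
Apoa5: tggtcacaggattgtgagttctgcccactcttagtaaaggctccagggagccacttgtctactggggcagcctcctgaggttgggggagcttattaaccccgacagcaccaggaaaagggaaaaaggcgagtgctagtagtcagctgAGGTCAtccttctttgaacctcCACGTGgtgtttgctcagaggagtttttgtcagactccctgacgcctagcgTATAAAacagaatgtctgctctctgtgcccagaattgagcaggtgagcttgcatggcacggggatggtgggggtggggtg
The Apoa5 window held 3 matches, none of which overlap. AGGTCA spans bases 148 to 153 of the window, CACGTG bases 170 to 175 and TATAAA bases 221 to 226, counted from its first base. The Apoa4 window held 0 matches to these letters. Of all 33469 windows in the table, 16.2% hold AGGTCA, 6.42% hold CACGTG and 14.2% hold TATAAA. The other 3 motifs were in 0.391% (CAAAGTCCA), 0.003% (HNF1) and 0.893% (TTATGTAA) of all windows. The Apoa4 and Apoa5 windows were 57% and 54% G or C.

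The deposited table holds 1 value per probe set and array on a log2 scale, with array medians between 6.47 and 6.48. Since the RNA extraction protocol names brain although every label names liver, the tissue was checked against markers. The 7 hepatocyte markers measured had a median level of 13.48 in N-group and 13.51 in C-group livers, and the 7 brain markers had medians of 6.19 in both, under the array medians. Among the brain markers Mbp lay above the array medians, at 7.38 in N-group and 7.15 in C-group livers. The enterocyte, the other cell that builds Apob particles, had 3 of 4 markers close to the array medians (Fabp2 at 6.56, Alpi at 6.39 and Vil1 at 6.15 in N-group and C-group livers). The other one, Cdh17, lay above the array medians, at a mean of 8.23 in N-group and 8.999 in C-group livers, a difference of -0.77 ± 0.43 (SE). With the other 3 close to the array medians, the Cdh17 signal cannot be read as enterocytes. Which cells gave it, and its part in the results, was not tested. Macrophages, which also make Apoe, had a mean marker level of 8.06 to 8.57 in N-group and 8.18 to 8.41 in C-group livers over 7 markers, 0 of them called. P-values for the diets weigh a difference in means against the spread between these animals. Each sample carries a code whose letter is A for all N-group and B for all C-group arrays, so that what the letter stands for and the diet cannot be told apart.

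Most apolipoprotein signals were near-constant, meaning an SD over the 10 arrays at or under 0.01 log2 units. This held for 8 of the 12 probe sets (66.7%), against 87.0% of all 31042. The 8 covered Apoa2, Apoc1, Apoc2, Apoc3, Mttp, both probe sets of Apoe and 1 of the 2 for Apob. Apoc3, which inhibits lipoprotein lipase and slows particle clearance, was at 13.85 in all 10 livers with a range of 0.00012. Apoe, the ligand that carries remnant particles to hepatic receptors, was at 13.70 in all 10 livers with a range of 0.000165. A second Apoe probe set (1371288_at), which the gene table links to the same accession, lay at 5.84, under the array medians, with a range of 0.000707. Apoc1, a small exchangeable apolipoprotein, was at 13.54 and Apoa2, the second protein of high density lipoprotein, at 13.38 in all 10 livers.

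Apoc2, the activator of lipoprotein lipase, stood at 12.89 in all 10 livers, Apob (1388190_at), the structural protein of very low density lipoprotein, at 13.20, and Mttp at 10.37. Among these 8 probe sets the largest difference between the diets was 0.000105 log2 units, so no test is given for them. A spread this small over 10 animals is far under the SD of the varying probe sets, whose median was 0.192 over the whole table. Which step of the authors' processing gave such values is not stated in the sources used here. A lack of movement in these genes therefore cannot be read from the values alone. The members just inside and just outside the threshold were Apoe (1371288_at) with an SD of 0.000264 and Apoa5 with one of 0.136.

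**Figure D1:**
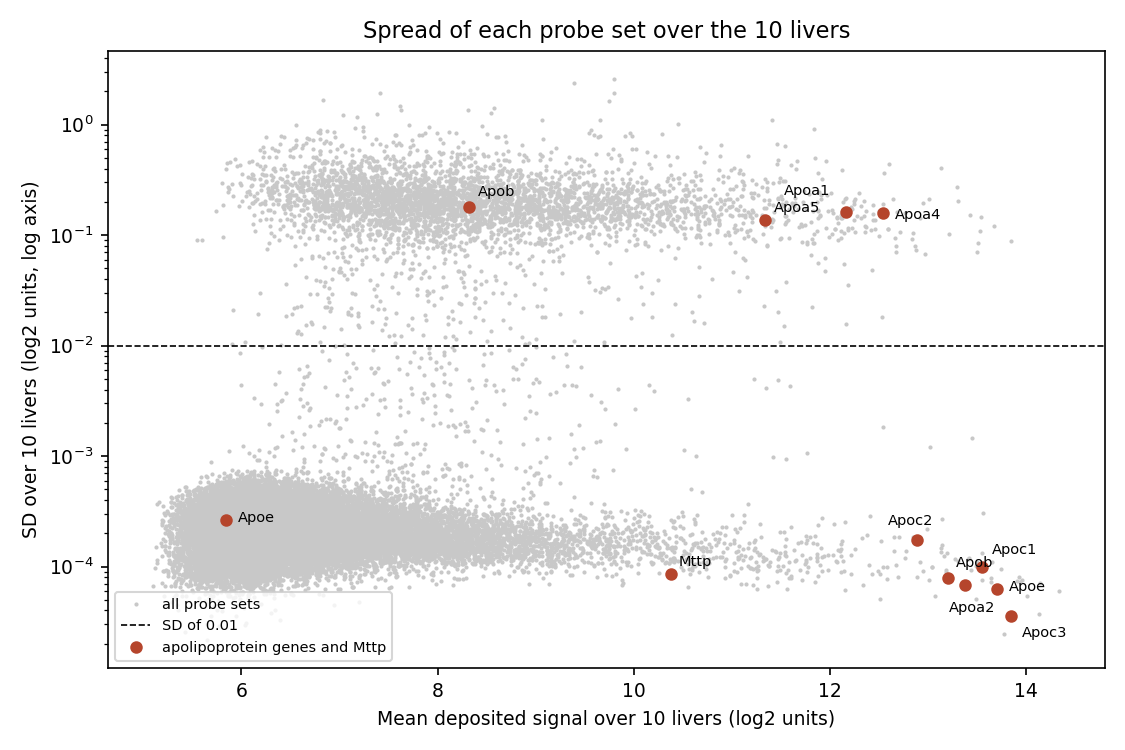
Each point is 1 of 31042 probe sets, with its mean deposited signal over the 10 livers (log2 units) on the x axis and its SD over the same livers (log2 units, log axis) on the y axis, and the 12 member probe sets are named. A band near an SD of 0.0002 and a band near 0.2 stand apart, with 8 members in the lower and 4 in the upper band.

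The share of near-constant probe sets changed with the level of the signal. Of the 57 probe sets with a mean of 13 or more, 45 (78.9%) were near-constant, and the 5 members there (Apoa2, Apob 1388190_at, Apoc1, Apoc3 and Apoe 1370862_at) were all among them. Between 12 and 13 the share was 36.9% of 122 probe sets, and 1 of the 3 members there was near-constant. Other plasma proteins made by hepatocytes gave the same picture, with 18 of 23 measured genes near-constant, among them Alb at 14.34 and Ttr at 13.77 in both diets. The 3 varying ones with the smallest p, the thrombin inhibitor Serpind1, complement C3 and Itih1, differed by 0.05 ± 0.11, -0.02 ± 0.08 and 0.00086 ± 0.0103 (SE). Signals of different probe sets do not rank the amounts of their mRNAs.

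The 4 varying probe sets were those of Apoa1, Apoa4, Apoa5 and the second Apob probe set. Their genes include 3 of the 4 neighbours on chromosome 8, Apoc3 being the near-constant one. Of these 4, 0 passed the limma test (adjusted p under 0.05), beside 0% of all probe sets and 0.321% of the varying ones fitted alone. Their N-group means were higher for 2 (Apoa1 and Apob) and lower for 2 (Apoa4 and Apoa5). The median log2 difference of the 4 was -0.03, beside 0.01 over all 4050 varying probe sets. In whole liver, fewer cells of a type and less RNA per cell cannot be told apart.

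Apoa1 encodes the main protein of high density lipoprotein and activates the cholesterol-esterifying enzyme of plasma. Its signal was 12.21, 12.20, 12.27, 12.45 and 12.28 in N-group animals 1, 4, 7, 10 and 13, against 12.17, 11.96, 11.88, 12.16 and 12.07 in C-group animals 2, 5, 8, 11 and 14. Every N-group liver lay above every C-group liver, and the lowest of the N-group (animal 4) was 0.0344 log2 units above the highest of the C-group (animal 2). The means were 12.28 ± 0.10 in the N-group and 12.05 ± 0.13 in the C-group (SD, n = 5 each). The log2 difference was 0.23 ± 0.07 (SE), with a 95% interval of 0.08 to 0.39, or 1.18-fold. It did not pass the limma test over all probe sets (adjusted p = 0.850) or over the varying ones alone (adjusted p = 0.198). The exact two-sided permutation test gave p = 0.00794, the smallest that 5 against 5 livers allow, as 1 of 4 such tests and not adjusted for them.

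Non-overlap of this kind was found in 1 of the 12 member probe sets, beside 0.77% of all probe sets and 2.99% of the varying ones. Higher N-group values with no overlap made up 1.73% of the varying probe sets. The size of the Apoa1 difference was ordinary among varying probe sets, 795 of which (19.6%) differed by at least as much in either direction. With 1 liver left out in turn the Apoa1 difference stayed between 0.19 and 0.26. Among the 3 N-group and 2 C-group livers of animals 1 to 7 it was 0.16, and among the 2 N-group and 3 C-group livers of animals 8 to 14 it was 0.33. As the diets do not overlap for Apoa1, the sign in any such subset of livers is fixed in advance, and only the size can change.

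Apoa4 is made by intestine and, in rodents, also by liver, and rides on chylomicrons and high density lipoprotein. Its signal was 12.35, 12.43, 12.37, 12.49 and 12.76 in N-group animals 1, 4, 7, 10 and 13, against 12.57, 12.36, 12.62, 12.72 and 12.71 in C-group animals 2, 5, 8, 11 and 14. The diets overlapped, with the highest value of all in N-group animal 13 and the C-group animal 5 among the lowest. The log2 difference was -0.11 ± 0.10 (SE, adjusted p = 0.9997 by limma), with a 95% interval of -0.34 to 0.11. Without N-group animal 13 it was -0.19 and without C-group animal 5 it was -0.17, neither past the limma test. The exact permutation p was 0.262 (5 livers per group).

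Apoa5 promotes lipolysis of triglyceride-rich particles at the vessel wall and is made almost only in liver. Its signal was 11.31, 11.50, 11.41, 11.19 and 11.09 in N-group animals 1, 4, 7, 10 and 13, against 11.31, 11.53, 11.30, 11.29 and 11.46 in C-group animals 2, 5, 8, 11 and 14. N-group animals 10 and 13 had the lowest values of the 10, while the other 8 livers were mixed. The log2 difference was -0.08 ± 0.09 (SE), with a 95% interval of -0.27 to 0.12, and it did not pass limma (adjusted p = 0.9997). Single livers set its size, which was -0.02 without N-group animal 13, -0.05 without N-group animal 10, -0.04 without C-group animal 5 and -0.13 without N-group animal 4. The exact permutation p was 0.389 (5 livers per group).

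Apob had 2 probe sets that behaved differently. The near-constant one, 1388190_at, was given above, while 1371157_at had a lower signal and varied. That dimmer probe set read 8.56, 8.34, 8.39, 7.99 and 8.35 in N-group animals 1, 4, 7, 10 and 13, against 8.21, 8.12, 8.25, 8.54 and 8.46 in C-group animals 2, 5, 8, 11 and 14. The ranges overlapped almost wholly, and the log2 difference was 0.01 ± 0.12 (SE, adjusted p = 0.9997 by limma, exact permutation p = 0.944, 5 livers per group). The difference was 0.26 among animals 1 to 7 but -0.25 among animals 8 to 14, and it turned negative when any 1 of 5 livers (N-group animals 1 and 7, C-group animals 2, 5 and 8) was left out. Rat liver edits Apob mRNA so that long and short proteins arise from 1 gene, and the array signal does not tell the 2 forms apart.

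**Figure D2:**
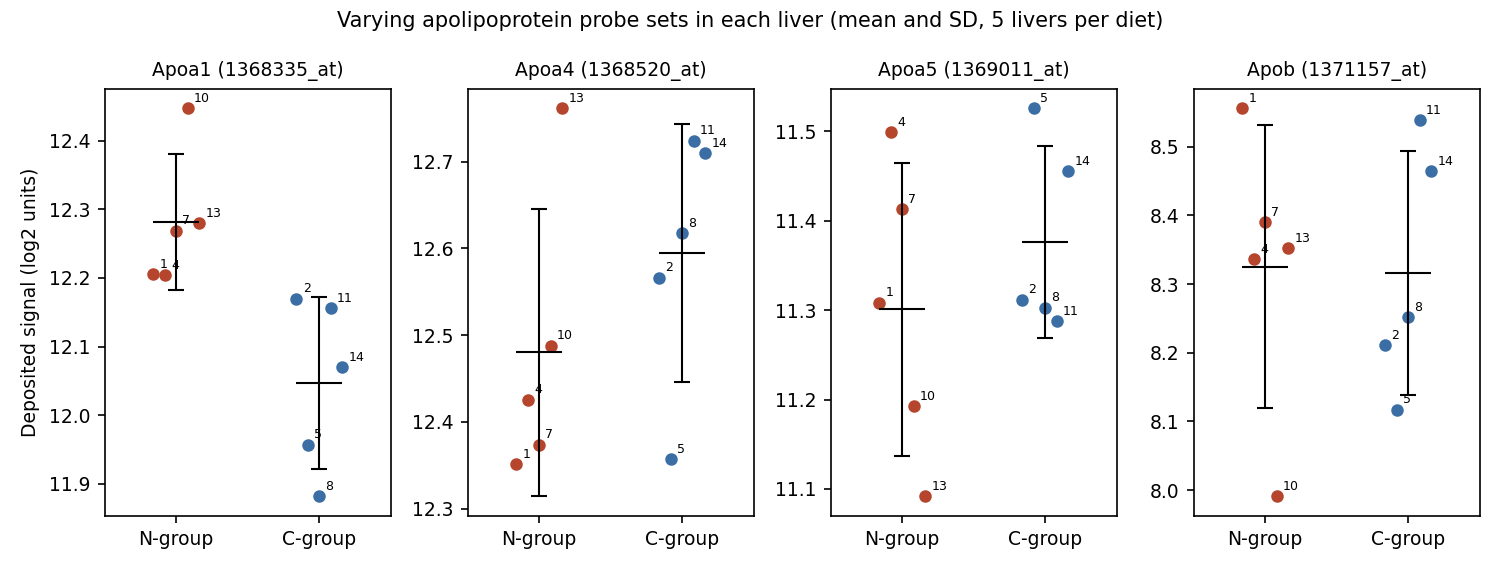
Deposited signal (log2 units) of the 4 varying member probe sets in each liver, N-group left and C-group right, with animal numbers beside the points and black bars for the mean and SD of 5 livers. Only in the Apoa1 panel do the groups not overlap, with N-group livers at 12.20 to 12.45 and C-group livers at 11.88 to 12.17.

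Over the whole table the comparison gave few calls against which to read these values. Limma called 0 of 31042 probe sets (0%) at an adjusted p under 0.05, with a smallest adjusted p of 0.494 and 1390 (4.48%) at an unadjusted p under 0.05. A fit with no shared variance called 0 as well, with 1139 at an unadjusted p under 0.05, and array weights called 2. Among the 4050 varying probe sets alone limma called 13 (0.321%), none of them a member. At an unadjusted p under 0.05 stood 12.5% of the varying probe sets in the fit of all. Apoa1 was among them (unadjusted p = 0.00905 by limma, not an exact test), and the other 3 varying members were not.

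Apoa4 was also set against the animal numbers in the titles. In the N-group Apoa4 averaged 12.62 in animals 10 and 13 and 12.38 in animals 1, 4 and 7. In the C-group it averaged 12.68 in animals 8, 11 and 14 and 12.46 in animals 2 and 5. Centred on the diet means, Apoa4 and animal number had a Pearson r of 0.772 (exact permutation within the diets, p = 0.0126, n = 10, adjusted p = 0.0506 over 4 relations) and a Spearman rho of 0.788 (exact permutation p = 0.0132, adjusted p = 0.0528). The relation missed the threshold after adjustment. Without animals 1 and 14, the 2 farthest from the median number, r was 0.732 (exact permutation p = 0.0590, n = 8). Within the sets of animals 1 to 7 and 8 to 14, centred on diet and set, r was 0.249. The N-group minus C-group difference in Apoa4 was -0.08 in the first of these sets and -0.06 in the other.

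Apoa5 had a negative r along the animal numbers over all 10 livers, with r = -0.395 and rho = -0.492 (exact permutation p = 0.288 and 0.189, n = 10, adjusted p = 0.576 and 0.378). Without animals 1 and 14 it was -0.720 (exact permutation p = 0.0764, n = 8), but centred on diet and set it turned to 0.557, so its sign holds only across the sets. Apoa1 and the varying Apob probe set had r of 0.273 and 0.072 (rho = 0.320 and 0.123, exact permutation p = 0.465 and 0.848, and 0.402 and 0.766 for rho, n = 10, adjusted p = 0.620 and 0.848). The array positions in the labels' codes rise with animal number inside each diet, so number and position cannot be told apart there. Apoa5 had an N-group minus C-group difference of -0.01 in animals 1 to 7, while in animals 8 to 14 it was -0.21, the lower N-group values being those of animals 10 and 13.

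**Figure D3:**
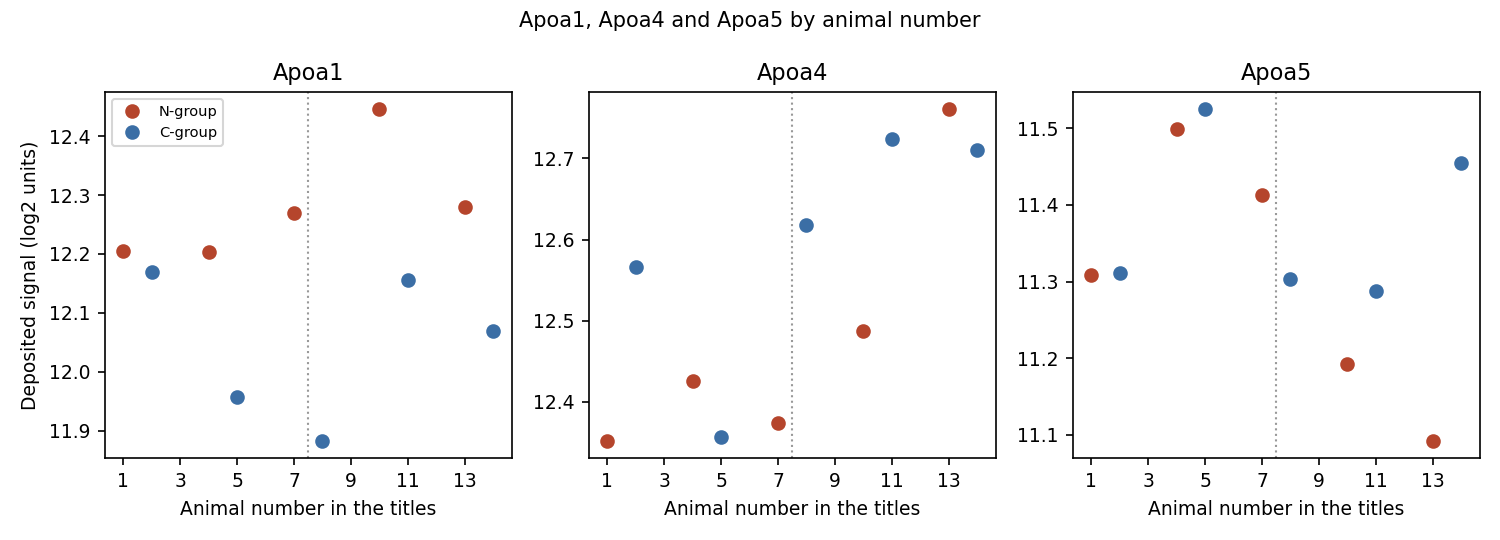
Deposited signal (log2 units) of Apoa1, Apoa4 and Apoa5 against the animal number in the titles, N-group in red and C-group in blue, with a dotted line between animals 1 to 7 and 8 to 14. Within each diet Apoa4 lies higher to the right of the line, as Apoa5 lies lower in the N-group. For Apoa1 the diets do not overlap, so the N-group lies above the C-group on both sides by necessity.

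The varying members did not move as 1 block from liver to liver. Of 6 pairs tested after centring on the diet means alone, Apoa4 and Apoa5 had the largest r in size over all 10 livers, with r = -0.695 and rho = -0.721 (exact permutation p = 0.0349 and 0.0252, n = 10, adjusted p = 0.210 and 0.151 over the 6 pairs). Without N-group animal 13 and C-group animal 11 it was -0.398, so the relation rests on those livers, and centred also on the animal-number sets it was -0.391. Apoa1 had r = 0.331 with Apoa4 (rho = 0.418, exact permutation p = 0.370 and 0.262, n = 10) and -0.417 with Apoa5 (rho = -0.515, exact permutation p = 0.235 and 0.132, n = 10). Without N-group animal 10 and C-group animal 8 these became 0.615 and -0.673 (exact permutation p = 0.128 and 0.0399, n = 8, adjusted p = 0.385 and 0.240). The 3 pairs with Apob lay between -0.180 and 0.259, and 0 of the 6 pairs passed after adjustment. Centred also on the animal-number sets the order was another, with r of 0.701 for Apoa4 and Apob, -0.472 for Apoa5 and Apob, 0.1999 for Apoa1 and Apoa4, -0.153 for Apoa1 and Apoa5, and 0.184 for Apoa1 and Apob, whose r was -0.180 without that centring.

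Genes whose signal most resembled that of a member were sought among 2800 other genes with a varying probe set, by Pearson r over the 10 livers after centring on the diet means, as a description with no test. For Apoa4 these were Hdac2, a histone deacetylase (r = 0.927), Mia2 (r = 0.907) and Pcmtd1 (r = 0.897). Mia2 encodes a cargo receptor that helps large lipoproteins leave the endoplasmic reticulum, and the value is that of its dimmer probe set, since the brighter one was near-constant at 9.98. The median size of r between Apoa4 and the 2800 genes was 0.558, and 1.21% of them had an r over 0.8. For Apoa1 the nearest were Insrr, a receptor related to the insulin receptor (r = 0.861), LOC102549828 (r = 0.786) and Bex3 (r = 0.747), against a median size of 0.346. For the varying Apob probe set they were C2h4orf46 (r = 0.915), LOC100910973 (r = 0.877) and the nuclear import factor Kpnb1 (r = 0.862), against a median size of 0.241. Some of these signals were dim. C2h4orf46 lay under the array medians, at 6.40 in N-group and 6.24 in C-group livers. Insrr (6.83 and 6.86) and Bex3 (6.71 and 6.76) lay little above the array medians.

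The other genes of the lipoprotein pathway were described with 5 lists holding 108 genes, of which 92 were measured and 49 varied. Of the 92, limma called 0 over all probe sets, and 0 of the 49 among the varying ones. At an unadjusted p under 0.05 stood 9 of the 49, beside 12.5% of all varying probe sets. The 49 had 28 higher and 21 lower means in the N-group and a median log2 difference of 0.04. Each gene is represented by its probe set with the highest mean.

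Of 12 other apolipoproteins and particle partners measured, 8 varied, 7 with a higher and 1 with a lower N-group mean, a median difference of 0.06 and 0 at an unadjusted p under 0.05. Apoc4, the neighbour of Apoc1 and Apoc2, was at 10.88 ± 0.09 in N-group and 10.81 ± 0.12 in C-group livers (SD, n = 5 each). Pon1, the paraoxonase that Apoa1 particles carry, was at 12.86 ± 0.08 and 12.81 ± 0.10 in N-group and C-group livers, while its dimmer probe set was near-constant at 6.81. Apol9a, an interferon-responsive member of the apolipoprotein L family, had a difference of 0.23 ± 0.15 (SE).

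Of 20 genes of particle assembly and secretion, 11 varied, 7 higher and 4 lower, with a median difference of 0.07. Ces1d, a carboxylesterase that frees stored triglyceride for very low density lipoprotein, was at 11.95 ± 0.23 in N-group and 11.62 ± 0.06 in C-group livers (SD, n = 5 each) with no overlap. Its log2 difference of 0.32 ± 0.10 (SE) did not pass limma (adjusted p = 0.871 over all and 0.198 over varying probe sets). Plin2, a lipid droplet coat protein, differed by 0.41 ± 0.15, while its second probe set was near-constant. Acat2 differed by 0.51 ± 0.20, and it encodes the cytosolic acetyl-CoA acetyltransferase at the start of cholesterol synthesis, not the sterol-esterifying enzyme that once bore the same name. The counts of this list and of all lists together still include Acat2, which by this function is not a gene of particle assembly.

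Remodelling and uptake genes showed small differences. Of 18 genes of lipolysis and high density lipoprotein remodelling, 8 varied, 5 higher and 3 lower, with a median difference of 0.05 and 0 at an unadjusted p under 0.05. Bmp1, a protease that trims the Apoa1 precursor, differed by 0.23 ± 0.14, Pcsk5, a proprotein convertase, by 0.21 ± 0.20 and Pltp, the phospholipid transfer protein, by 0.07 ± 0.13 (SE). The dimmer probe sets of Bmp1 and Pcsk5 were near-constant. Lcat, the enzyme that Apoa1 activates, was near-constant at 11.77, as was Abca1, the exporter that lipidates Apoa1, at 8.85. Of 15 uptake genes, 3 varied, with differences of 0.04 ± 0.11 for the remnant receptor Lrp1, 0.02 ± 0.19 for the heparan sulfate proteoglycan Sdc1 and -0.05 ± 0.21 for the high density lipoprotein receptor Scarb1. Dimmer probe sets gave 0.06 for Sdc1 and -0.00362 for Scarb1, and that of Lrp1 was near-constant.

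Among the 5 lists, regulators of apolipoprotein genes held most of the larger differences. The lists were chosen with earlier results of these data known, so this excess cannot be read as a finding about regulators. Of 27 measured, 19 varied, 7 with higher and 12 with lower N-group means and a median difference of -0.11. At an unadjusted p under 0.05 by limma stood 6 of the 19, beside 12.5% of all varying probe sets. Of the 6, 5 were lower (Cebpa, Cebpb, Nr1d1, Thrb and Onecut1) and 1 higher (Rora), and 0 passed after adjustment. Cebpa, a hepatocyte transcription factor that acts on several of these promoters, was at 9.56 ± 0.17 in N-group and 10.01 ± 0.15 in C-group livers (SD, n = 5 each) with no overlap. Its difference of -0.45 ± 0.10 (SE) had an adjusted p of 0.634 over all and 0.0856 over varying probe sets by limma, and all 5 of its probe sets were lower, by -0.33 to -0.45. Cebpb, its relative induced in stress, differed by -0.47 ± 0.13. Nr1d1, a clock repressor that also acts on Apoc3, differed by -0.96 ± 0.30 and its opponent Rora by 0.36 ± 0.13, while Thrb, the thyroid hormone receptor beta, differed by -0.31 ± 0.10. Onecut1, a hepatocyte transcription factor, was at 7.67 ± 0.35 in N-group and 9.47 ± 1.52 in C-group livers (SD, n = 5 each), with C-group animals 8, 11 and 14 at 10.34 or above and animals 2 and 5 at 7.54 and 8.14. Hnf4a, a master activator of these genes, was at 11.07 ± 0.12 in N-group and 10.95 ± 0.36 in C-group livers.

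**Figure D4:**
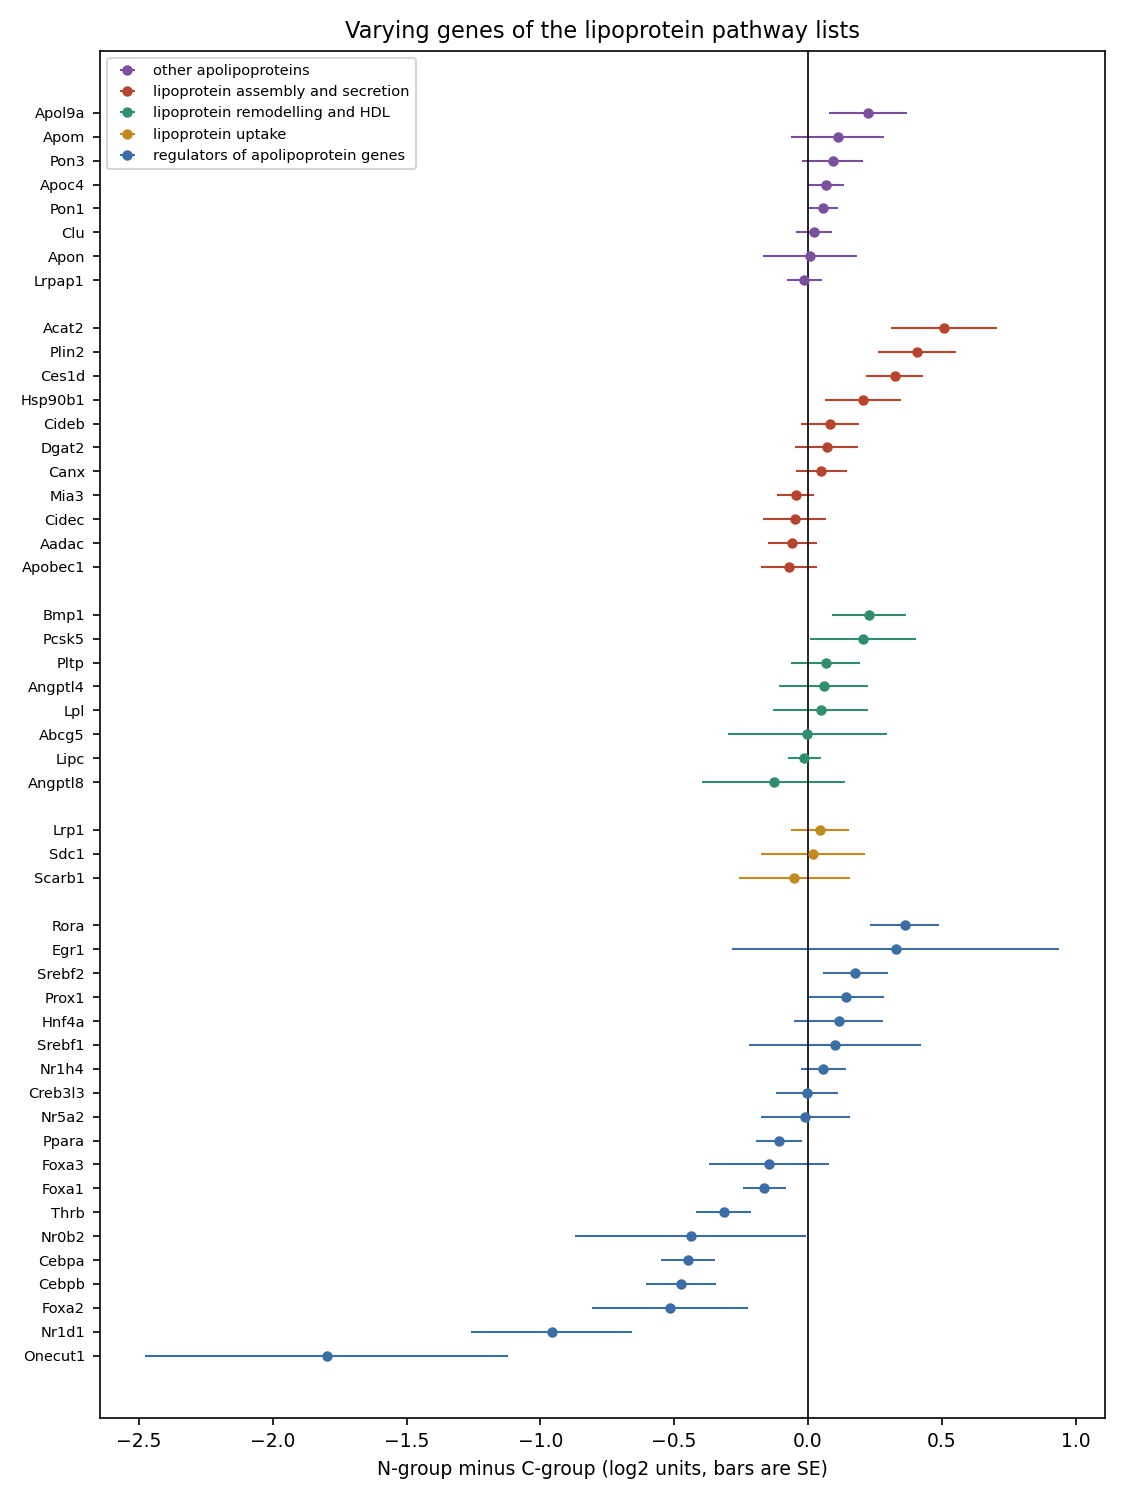
Log2 difference, N-group minus C-group, with SE (5 livers per group) for the 49 varying genes of the 5 lists, coloured by list. Differences of the first 4 lists lie between -0.13 (Angptl8) and 0.51 (Acat2), and those of the regulators reach -1.80 (Onecut1).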

How the data were processed

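Biotin-labelled cRNA from 100 ng of total RNA of each liver was put on an Affymetrix rat array, per the labels' protocols and the probe set identifiers. The authors deposited 1 log2 value per probe set and array. How they were summarized and normalized is not stated in the sources used here. Base 2 was inferred, since values lie between 4.79 and 14.34. Of 31099 probe sets, 57 controls were left out. The platform's gene table gives 20826 of the rest 1 gene, 436 several and 9780 none. The GRCr8 gene table, joined on gene identifier and used for names alone, matched 20758. No detection call was used, so probe sets with no detected signal may be among those tested. The number of arrays limits the precision.

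Differences were tested with limma 3.58.1 (lmFit and eBayes, two-sided, no covariate) in R 4.3.3 on all 31042 probe sets, with Benjamini-Hochberg adjustment and a threshold of 0.05. Single probe sets also had an exact permutation test. Relations were tested by permutation within the diets. The fits were tested on simulated data. No dim probe set was filtered out. The members, the lists and the split of animals 1 to 7 against 8 to 14 were chosen with earlier results of these data known.

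Named were all member probe sets, in each pathway and plasma protein list the 3 varying genes of lowest p, and the 3 genes most like Apoa1, Apob and, since Apoe was near-constant, Apoa4. Thrb, Rora, Onecut1, Hnf4a, Lcat, Abca1, Alb, Ttr, Angptl8, Apom, Ppara, Lipc and the marker genes were named after their values were seen. Alternatives were a dim-signal filter at 7 log2 units, varying probe sets alone, 1 probe set per gene, 2 further normalizations, other variance models, a statistic with no shared variance (Welch), animal number, array position and the animal split as covariates, array weights, and each array left out.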

Additional observations from a re-analysis of the deposited data

Results flagged for a closer look

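Sets of 5 livers of 1 diet were screened for a liver far from the rest over 67 varying probe sets, those of the members, of every pathway and plasma protein list gene by its highest-mean probe set, and of the genes most like a member. Of 134 such sets 4 stood out, all of list genes and none of a member, where chance at 1 in 20 would give 6.7 for independent sets. Apol9a was high in N-group animal 7, at a gap of 0.7469 of that diet's range from the nearest liver. Apom, the apolipoprotein that carries sphingosine 1-phosphate, was low in C-group animal 5 (0.8982 of the range). Ppara, the fatty acid receptor, was low in C-group animal 11 (0.8498), as was Lipc, hepatic lipase (0.7213).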

How the results depend on the processing

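The count of member probe sets called was 0 under all 22 alternatives run. Apoa1 kept its sign under all 22 (0.19 to 0.26, adjusted p of 0.198 or above), as did Apoa4 (-0.20 to -0.07) and Apoa5 (-0.13 to -0.01). For Apoa1 the non-overlap of the diets fixes the sign whenever single livers are left out. Apoa4 went to -0.20 with array weights, -0.19 with array position and -0.19 without N-group animal 13, and Apoa5 to -0.01 with array weights and -0.02 without that liver. The varying Apob probe set turned to -0.000203 with array position as a covariate and ranged from -0.0491 to 0.0921 with 1 liver left out, and the r of Apoa1 with Apob turned to 0.346 without 2 livers. Over all probe sets the count of 0 became 13 on varying probe sets alone, 2 with array weights, 255 when arrays were centred on the median of their varying probe sets, and 0 to 10 with 1 liver left out, the 10 being without C-group animal 11. That centring gives every near-constant probe set the spread of the array medians. With it, 7 genes of the pathway lists were called, namely Ces1d, Acat2 and Rora (higher) and Cebpa, Cebpb, Nr1d1 and Onecut1 (lower). With SD thresholds of 0.001 and 0.05, near-constant were 86.2% and 87.6% of all probe sets and the same 66.7% of members. No paired analysis was run, since the sample titles do not say which animals were fed as pairs. Any pairing of N-group with C-group animals was therefore not taken into account. Signal over background is unknown, so it cannot be said which probe sets were too dim or too bright to move.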

Other observations

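The near-constant members held small differences along the animal numbers, all under 0.001 log2 units. All 5 livers of animals 8 to 14 lay below all of animals 1 to 7 for Apoc2, with a mean difference of -0.000292 log2 units. Of the 5, 4 did for Apoc1 (-0.000146) and for Mttp (-0.000085), and 3 for Apoe (1370862_at). Only 1 did for each of Apoa2, Apob (1388190_at) and Apoc3. For the dim Apoe probe set 1371288_at it was 0, with a difference of 0.000219. The share of all probe sets that part in this way was not counted, so the counts cannot be read as a trait of the members. No test is given for these values.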
